A study of Mus musculus with 7 samples.

Results

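The interleukin-1 (IL-1) family and the epithelial alarmin TSLP were followed across the cells of mouse epidermis after bone marrow transplantation (BMT). The 8 genes were taken by symbol: Il1a, Il1b, Il1rn, Il1r2, Il1rl1, Il18, Il33 and Tslp. All 8 were listed in each of the 3 expression tables, out of 15155 genes for donor cells, 26383 for keratinocytes and 23737 for host cells.

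The hosts were male C57BL/6 mice carrying CD45.2, which were lethally irradiated and given marrow of female C57BL/6 donors carrying CD45.1, and epidermis was taken 3 weeks later. Sorted donor CD11b+MHCII+ cells came as 3 libraries labelled BMT and 1 labelled BMT plus T-cells, here BMT + T cells. CD45neg keratinocytes of the host came as 1 library under each label, and host CD11b+MHCII+ cells as 1 library labelled BMT. The design text of the series has T cells, CD4 together with CD8 Matahari, given in all transplants, whereas the labels name T cells for the BMT + T cells libraries only, so comparisons of treatment are comparisons of labels. Epidermis of several mice was pooled and no label ties a library to separate animals, so p-values measure only the spread between these libraries.

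The donor libraries held 2572, 8382 and 226 cells (BMT replicates 1 to 3) and 719 cells (BMT + T cells), at median depths of 7021.5 to 13387 unique molecular identifiers (UMIs) per cell. The keratinocyte libraries held 2836 (BMT) and 2590 (BMT + T cells) cells at medians of 8895.5 and 8834 UMIs, and the host library 781 cells at 4376 UMIs. Levels are UMIs per 10000 UMIs of the cell (CP10K), averaged over the cells of a library and cluster. Clusters carry the names of the deposited annotation: monocytes (Mono), ISG, Hmox1+ and S100a+ monocytes, Mrc1+ macrophages, MC, and resident, cycling and migrating monocyte-derived Langerhans cells (mLC). Resident mLC held the summed markers Cd207, Epcam and Mfge8 at 59.9 to 85.6 CP10K, and migrating mLC held Cd83, Nr4a3 and Ccr7 at 22.8 to 24.2 CP10K, against 0.142 to 0.485 CP10K in resident mLC. The S100a+ cluster had at least 20 cells in BMT replicate 2 alone, and its cells held 6 listed neutrophil markers of 7 at a sum of 53.3 CP10K, against 0.0255 to 1.36 CP10K in the other donor clusters.

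IL-1α and IL-1β signal through one receptor, and their action is limited by a receptor antagonist, encoded by Il1rn, and by a decoy receptor, encoded by Il1r2. IL-18 and IL-1β are made as precursors that inflammasome caspases cut. IL-33, which is read by the receptor encoded by Il1rl1, and TSLP are alarmins made by barrier epithelium, and Langerhans cells and keratinocytes are neighbours in that barrier.

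The promoters of Il1b, Il1rn and Il1r2 are shown because Il1b and Il1rn moved together across donor clusters and Il1r2 did not move with them. Each is the 250 bases before the annotated start in RefSeq (GRCm38.p6), 5′ to 3′ on the strand of the gene. Il1b lies at chr2:129371140-129371389 on the minus strand, Il1rn, at the first of its 3 listed starts, at chr2:24336610-24336859 on the plus strand and Il1r2 at chr1:40085843-40086092 on the plus strand. Capitals mark matches to the motifs given next.
Il1b: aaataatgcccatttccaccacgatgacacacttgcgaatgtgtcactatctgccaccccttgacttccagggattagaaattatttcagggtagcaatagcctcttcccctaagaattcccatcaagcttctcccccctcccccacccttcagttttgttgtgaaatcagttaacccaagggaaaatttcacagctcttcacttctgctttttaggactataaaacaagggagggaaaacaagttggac
Il1rn: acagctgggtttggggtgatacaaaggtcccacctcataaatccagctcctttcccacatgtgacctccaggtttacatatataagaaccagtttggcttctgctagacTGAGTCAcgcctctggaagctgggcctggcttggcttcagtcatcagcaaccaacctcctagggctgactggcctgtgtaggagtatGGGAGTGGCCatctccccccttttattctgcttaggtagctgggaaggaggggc
Il1r2: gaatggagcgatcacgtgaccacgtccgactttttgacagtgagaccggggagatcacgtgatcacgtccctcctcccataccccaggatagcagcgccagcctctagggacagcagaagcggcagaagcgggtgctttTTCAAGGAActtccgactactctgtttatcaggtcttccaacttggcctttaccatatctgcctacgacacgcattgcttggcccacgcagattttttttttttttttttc

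The motifs searched on both strands were a 10-letter NF-kB consensus, TGANTCA (AP-1), TTCNNNGAA (STAT) and TTGCNNAA (C/EBP). The Il1rn window held an AP-1 match starting 141 bases and an NF-kB match starting 54 bases before the gene start, and the Il1r2 window a STAT match starting 111 bases before it. No such letters occurred in the Il1b window shown. At the other Il1rn starts, the window at chr2:24345121-24345370 held an NF-kB match starting 51 bases before the start and no AP-1 match. The window at chr2:24345041-24345290 held none of the motifs. Which Il1rn start the donor cells used was not tested. Of 32851 promoter windows of this length, 45.8% held the NF-kB letters, 6.75% the AP-1, 7.02% the STAT and 9.56% the C/EBP letters. Promoter windows were kept for 7 of the 8 genes, with none for Tslp.

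Donor cells held mainly Il1b, Il1rn, Il1r2 and Il18, and keratinocytes Il33, Il1r2, Tslp and Il1rn. In donor cells, 54.5% of 11899 cells held an Il1b UMI, 48.3% an Il1r2, 47.7% an Il1rn and 12.3% an Il18 UMI. In keratinocytes, 64.1% of 5426 cells held Il33, 49.7% Il1r2, 17.9% Il1rn and 17.3% Tslp, whereas 0.571% held Il1b and 2.30% Il18. Donor cells held Il33 in 0.546% and Tslp in 0.353% of cells. Il1r2 was frequent in all 3 tables, with 34.7% of host cells. The plot of all 8 genes by cluster shows this division.

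**Figure D1:**
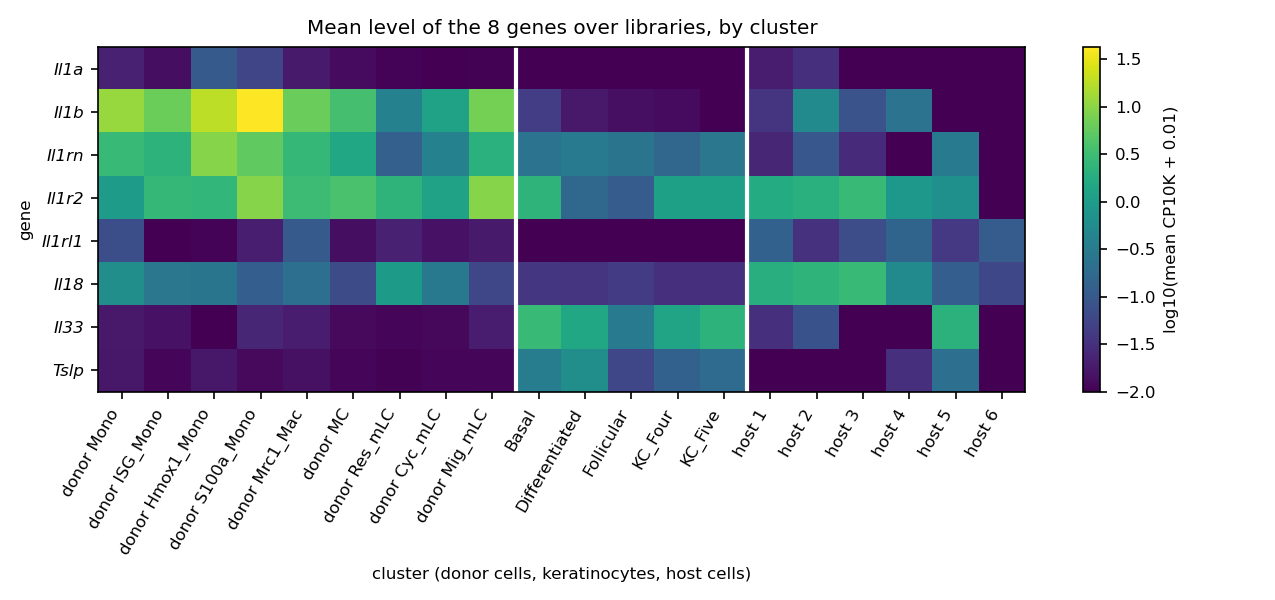
Mean level of the 8 genes (rows) in each donor, keratinocyte and host cluster with at least 20 cells in a library (columns), as log10(mean CP10K + 0.01) over libraries. Il1b, Il1rn, Il1r2 and Il18 fill the donor block, and Il33 and Tslp fill the keratinocyte block and host cluster 5; the 3 tables were made separately.

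Il1b, the secreted pyrogenic cytokine of activated myeloid cells, covered the widest range of levels in donor cells. In Mono it stood at 19.5, 16.3 and 5.56 CP10K in BMT replicates 1 to 3 and at 4.69 CP10K in the library labelled BMT + T cells. In resident mLC the same libraries held 0.156, 1.06, 0.0358 and 0.285 CP10K. Every Mono value lay above every resident mLC value, although 1 Mono cell of the BMT + T cells library held 240 of its 464 Mono UMIs. Hmox1+ monocytes held 18.5 ± 8.66 CP10K (SD, n = 3), overlapping Mono, and migrating mLC held 6.84 and 7.90 CP10K. The single S100a+ library had 42.4 CP10K with an Il1b UMI in 96.5% of its cells. Of the 7 pairs of neighbours in the order of Il1b levels among clusters with 2 or more libraries, 6 overlapped in range across libraries. Cycling and resident mLC were one such pair, although Il1b was higher in cycling mLC within each of the 3 libraries with at least 20 cells of both, at 1.56, 1.59 and 0.537 CP10K in cycling mLC.

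Il1rn, the antagonist, was highest in Hmox1+ monocytes and lowest in resident mLC. Hmox1+ monocytes held 13.3 and 9.76 CP10K in BMT replicates 1 and 2 and 5.09 CP10K in the BMT + T cells library. Mono held 4.88, 4.60, 1.70 and 0.255 CP10K, and Mrc1+ macrophages 2.58 ± 0.739 CP10K (SD, n = 4). Resident mLC held 0.171, 0.246, 0 and 0.0692 CP10K. The highest resident value, in BMT replicate 2, lay just under the lowest Mono value, that of the BMT + T cells library. That Mono value rests on 38 UMIs in 7 of 63 cells, 21 of them in 1 cell. Over the 27 library-by-cluster means, which share libraries, Il1b and Il1rn correlated at r = 0.91. Of 7267 genes, those most like Il1b were Srgn (0.94), Efhd2 (0.93) and Tnfrsf1b (0.93), and those most like Il1rn were Cstb (0.94), Srgn (0.94) and Gna13 (0.93).

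Il1r2, the decoy, was highest in migrating mLC at 6.99 and 11.9 CP10K, and in the S100a+ library at 9.18 CP10K. Resident mLC held 1.92, 2.39, 2.79 and 2.16 CP10K, a narrow range beside the 0.641 to 5.68 CP10K of Mrc1+ macrophages. Mono was lowest by the mean over libraries, at 0.772, 1.33, 1.42 and 0.292 CP10K. Its range overlapped that of cycling mLC (0.588 to 1.65 CP10K), and Mrc1+ macrophages lay below it in BMT replicate 1, at 0.641 CP10K. The genes nearest to Il1r2 over the 27 means were Rcl1 (r = 0.74), Tmem123 (0.72) and Nr4a3 (0.71), a weaker likeness than that of Il1b.

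Il18 and Il1b correlated at r = -0.48 over the 27 means, and Mono was high in both. Il18 was highest in resident mLC, at 0.595, 0.670, 1.23 and 1.21 CP10K, and lowest in MC (0.0664, 0.0553 and 0.0548 CP10K) and migrating mLC (0.0509 and 0.0469 CP10K). Resident mLC lay above Mono in each of the 4 libraries, although the ranges of the clusters overlapped across libraries. Among cells with at least 2000 UMIs, drawn down to 2000 UMIs per cell, 8.14 to 19.3% of resident mLC and 1.12 to 1.46% of MC kept an Il18 UMI. Over all cells before thinning the shares were 21.9 to 52.9% and 4.53 to 10.0%. Its nearest genes were Ptpn18 (r = 0.83), Dusp7 (0.83) and Slc9a9 (0.81).

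**Figure D2:**
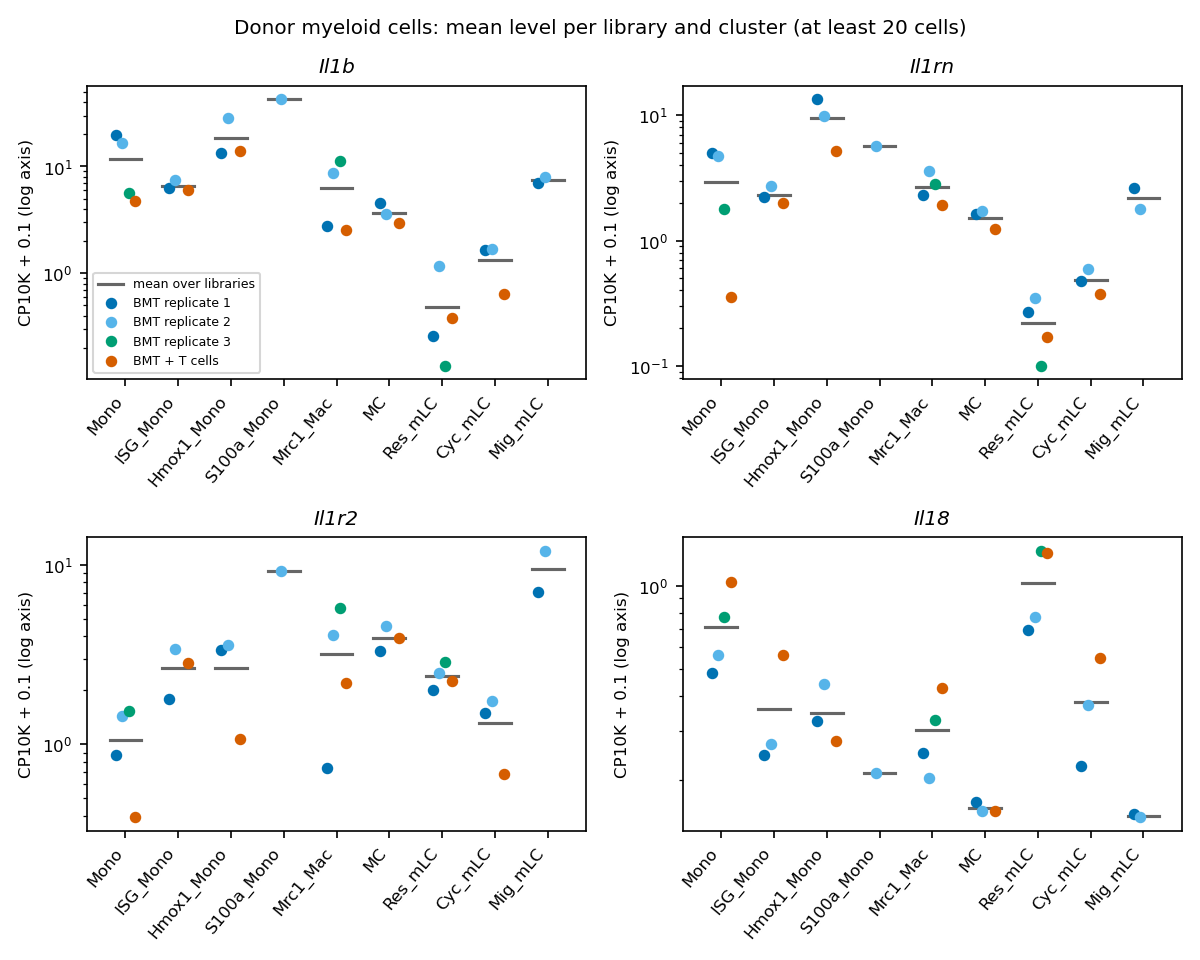
Level of Il1b, Il1rn, Il1r2 and Il18 in donor clusters, as CP10K + 0.1 on a log axis; points are libraries with at least 20 cells in the cluster and horizontal lines are means over libraries. Il1b and Il1rn are lowest in resident mLC, where Il18 is highest.

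The other 4 genes were scarce in donor cells and did not reach the mean of 0.1 CP10K needed for testing, so 4 of the 8 genes were tested between donor clusters. Il1a had 99 UMIs in 81 of 11899 cells, and Hmox1+ monocytes had the most, at 0.132 CP10K in BMT replicate 2 and 0.156 CP10K in the BMT + T cells library, with no UMI in the 24 cells of BMT replicate 1. Il1rl1 had 70 UMIs in 56 cells, of which Mono held 9 UMIs in 6 of 82 cells in BMT replicate 3 and 9 UMIs in 5 of 63 cells in the BMT + T cells library. Its highest level, 0.258 CP10K in Mrc1+ macrophages of BMT replicate 3, was 1 UMI in 1 of 45 cells. Il33 (75 UMIs) and Tslp (46 UMIs) never passed 0.0242 CP10K in a library and cluster with at least 20 cells. The basal keratinocyte markers Krt5 and Krt14 summed to 0 to 2.09 CP10K in these clusters, and the part of carried-over keratinocyte RNA in the Il33 and Tslp values was not tested.

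Differences between donor clusters were tested with limma on log2(CP10K + 0.1), and a gene was called when its adjusted p was under 0.05 and its log2 fold change exceeded 2 in size. The clusters had been drawn from the same cells, so calls describe the annotation. Resident mLC against Mono called 2 of the 4 tested genes, both lower, against 4.06% of 7267 genes. Il1b differed by -4.78 ± 0.53 (SE, adjusted p = 2.17e-06) and Il1rn by -3.30 ± 0.46 (adjusted p = 1.79e-05), each lower in 4 of 4 libraries. Il1r2 was 1.37 ± 0.40 higher (adjusted p = 0.0123), under the fold threshold, and Il18 differed by 0.53 ± 0.25 (adjusted p = 0.111).

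Against Mrc1+ macrophages, resident mLC were lower in the same 2 genes, beside 3.51% of all genes called. The differences were -3.86 ± 0.53 for Il1b and -3.70 ± 0.46 for Il1rn. Il18 was 1.76 ± 0.25 higher (adjusted p = 5.53e-06) in 4 of 4 libraries, under the fold threshold. Il1r2 differed by -0.05 ± 0.40, with 2 libraries on each side.

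In migrating against resident mLC, 4 of 4 tested genes were called, beside 2.61% of all genes, from the 2 libraries that held both clusters. Il1b (4.01 ± 0.67), Il1rn (2.96 ± 0.58) and Il1r2 (2.00 ± 0.50, adjusted p = 0.00801) were higher, and Il18 was lower at -2.43 ± 0.32 (adjusted p = 3.98e-06). Il1r2 sat at the threshold. Leaving out BMT replicate 1 or 2 left 1 library of migrating mLC, whose spread limma took from the other clusters. Without BMT replicate 1 Il1rn was no longer called, at 2.65 (adjusted p = 0.0899 by limma). Without BMT replicate 2 neither Il1rn, at 3.45 (adjusted p = 0.0568), nor Il1r2, at 1.94 (adjusted p = 0.241), was called by limma, and without BMT replicate 3 Il1r2 fell to 1.85. In MC against resident mLC, 3 of 4 were called beside 2.09% of genes. Il1b (3.25 ± 0.59) and Il1rn (2.81 ± 0.51) were higher and Il18 lower (-2.54 ± 0.28, adjusted p = 2.64e-07), each in 3 of 3 libraries, while Il1r2 differed by 0.95 ± 0.44 (adjusted p = 0.161).

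Among monocyte clusters, 0 or 1 of the tested genes were called in each contrast. ISG monocytes against Mono called 0 of 4, beside 0.372% of genes, with Il1r2 at 1.72 ± 0.44 (adjusted p = 0.0435). By limma at an unadjusted p under 0.05, 2 of the 4 passed, Il1r2 and Il18, beside 10.6% of all genes. Hmox1+ monocytes against Mono called Il1rn alone, 2.06 ± 0.51 higher (adjusted p = 0.0104), beside 0.894% of genes. Il1r2 (1.57 ± 0.44, adjusted p = 0.0199) and Il18 (-0.91 ± 0.28, adjusted p = 0.0254) differed under the fold threshold. The Il1rn call was lost without BMT replicate 1, BMT replicate 2 or the BMT + T cells library, at adjusted p of 0.0589 and 0.0699 for the first 2 and at a difference of 1.38 for the last. S100a+ monocytes against Mono called Il1r2 alone, 3.01 ± 0.66 higher (adjusted p = 0.0185), beside 0.743% of genes. It rests on 1 library, whose spread was taken from the other clusters, and the neutrophil markers given above stood in the same cells.

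**Figure D3:**
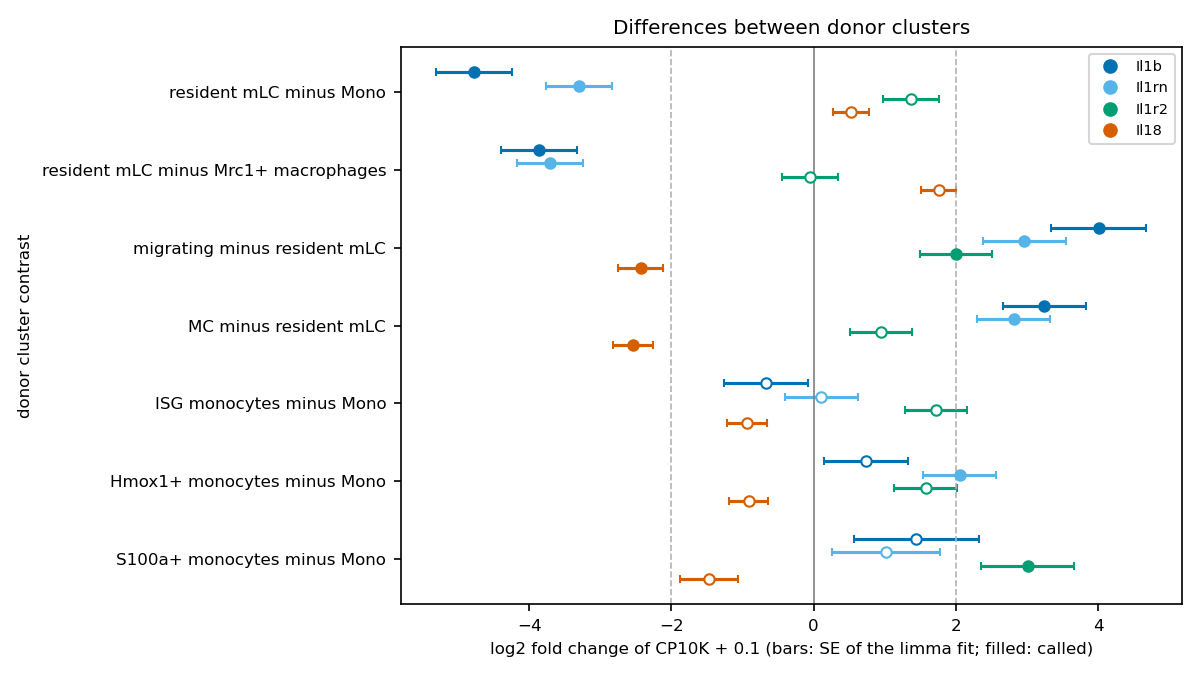
Log2 fold change of CP10K + 0.1 (x axis) with the SE of the limma fit for Il1b, Il1rn, Il1r2 and Il18 in 7 donor cluster contrasts (y axis); filled points were called and dashed lines mark the fold threshold. Il18 lies on the opposite side of 0 from Il1b and Il1rn in the 4 contrasts with resident mLC, which share the resident mLC values. It does so too in Hmox1+ and S100a+ monocytes against Mono.

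Other genes of the pathway were read from lists of ligands and decoys, receptors, inflammasome genes and signalling genes, of which 22 were tested in donor clusters. In resident mLC against Mono, 4 were called lower and 0 higher, beside the 4.06% of all genes called in either direction, and the median of the lists was -0.36 beside 0.14 over all genes. The 4 were Casp4 (-2.33), an inflammatory caspase, Irak3 (-2.17), a negative regulator of IL-1 receptor signalling, Nfkbia (-2.29), the NF-kB inhibitor, and Nfkbiz (-2.03), an NF-kB cofactor. Casp1, which cuts the IL-1β and IL-18 precursors, was lower by limma with an adjusted p of 0.000526 at -0.79, under the fold threshold. At an adjusted p under 0.05 alone, 32.7% of all genes passed in that contrast. Casp1 was also lower in Hmox1+ monocytes against Mono, at -1.33 (adjusted p = 1.58e-05 by limma), beside 15.5% of all genes. Il1b differed there by 0.73 ± 0.59 (adjusted p = 0.448 by limma). In resident mLC against Mrc1+ macrophages, Nfkbia (-2.10) and Tnfaip3 (-2.03), which encodes the NF-kB brake A20, were called lower, beside 3.51% of all genes. In migrating against resident mLC the same 2 genes were called higher, beside 2.61% of all genes, Nfkbia at 2.40 and Tnfaip3 at 2.15, while MC against resident mLC called 0 of 22 with limma, 7 having an unadjusted p under 0.05 beside 28.8% of all genes, with Nfkbia at 1.72. Against Mono, Il7r, part of the TSLP receptor, was called higher in Hmox1+ monocytes (2.48), beside 0.894% of all genes. Crlf2, the other TSLP receptor gene in the lists, differed there by -0.32 ± 0.17 (adjusted p = 0.214 by limma). Il18rap, an IL-18 receptor chain, was called higher in S100a+ monocytes against Mono (2.27), beside 0.743% of all genes. That call comes from the 1 library whose cells held the neutrophil markers.

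The donor BMT + T cells library was compared with the 3 BMT libraries on the mean of Mono, Mrc1+ macrophages and resident mLC. With limma, 0 of 4 tested genes were called, beside 0% of 7345 genes. At an unadjusted p under 0.05, 352 genes (4.79%) passed, Il1rn among them. On the log2 scale Il1rn stood at 0.55, 0.85 and -0.32 in the BMT libraries and was -1.04 with the label BMT + T cells, a difference of -1.40 ± 0.42 (adjusted p = 0.949). Il1b differed by -0.84 ± 0.53, Il1r2 by -0.67 ± 0.53 and Il18 by 0.70 ± 0.33. Without BMT replicate 3, which held 226 cells, Il1b, Il1rn and 202 genes in all were called. Against BMT replicate 3 alone, with no test, the difference was -0.29 for Il1b, -0.72 for Il1rn and -1.24 for Il1r2. The donor cells came from more than one sorting and sequencing experiment, which the labels do not assign to libraries, and its part in these differences was not tested. Of 24 other pathway genes 0 were called, and 2 had an unadjusted p under 0.05 by limma, beside the 4.79% of all genes.

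In keratinocytes, Il1r2 and Il33 were highest in basal cells and Tslp in differentiated cells. Il1r2 was at 2.27 and 2.33 CP10K (BMT, BMT + T cells) in basal cells, and at 0.171 and 0.135 in differentiated and 0.0853 and 0.119 in follicular cells. Il33 was at 2.65 and 2.93 in basal, 1.43 and 1.55 in differentiated and 0.224 and 0.396 CP10K in follicular cells. Tslp had another order, with 0.534 and 0.687 in differentiated, 0.347 and 0.293 in basal and 0.0707 and 0.0287 CP10K in follicular cells. The clusters named KC_Four and KC_Five lay between, with Il33 at 1.16 and 1.48 CP10K in KC_Four and at 2.20 and 2.17 CP10K in KC_Five. Il1rn stayed between 0.0944 and 0.331 CP10K in the 5 clusters, 3 of its 4 neighbouring pairs overlapping. Il18 lay between 0.00683 and 0.0455 CP10K. Over the 10 library-by-cluster means, the genes most like Il1r2 were Antxr1 (r = 0.99), Cysltr1 (0.98) and Krt14 (0.97), and those most like Il33 were Tgm3, Fgfr3 and Slc22a4 (each 0.97). For Tslp they were Oas1f (0.98), Dnpep (0.98) and Nat8l (0.97), and for Il1rn Nlrx1 (0.95), Etf1 (0.93) and Ddx21 (0.92). Il1rl1, the IL-33 receptor, had 0 UMIs in 5426 keratinocytes, which allows a share of up to 0.0553% of cells with a UMI and sets no limit on cells that express it.

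**Figure D4:**
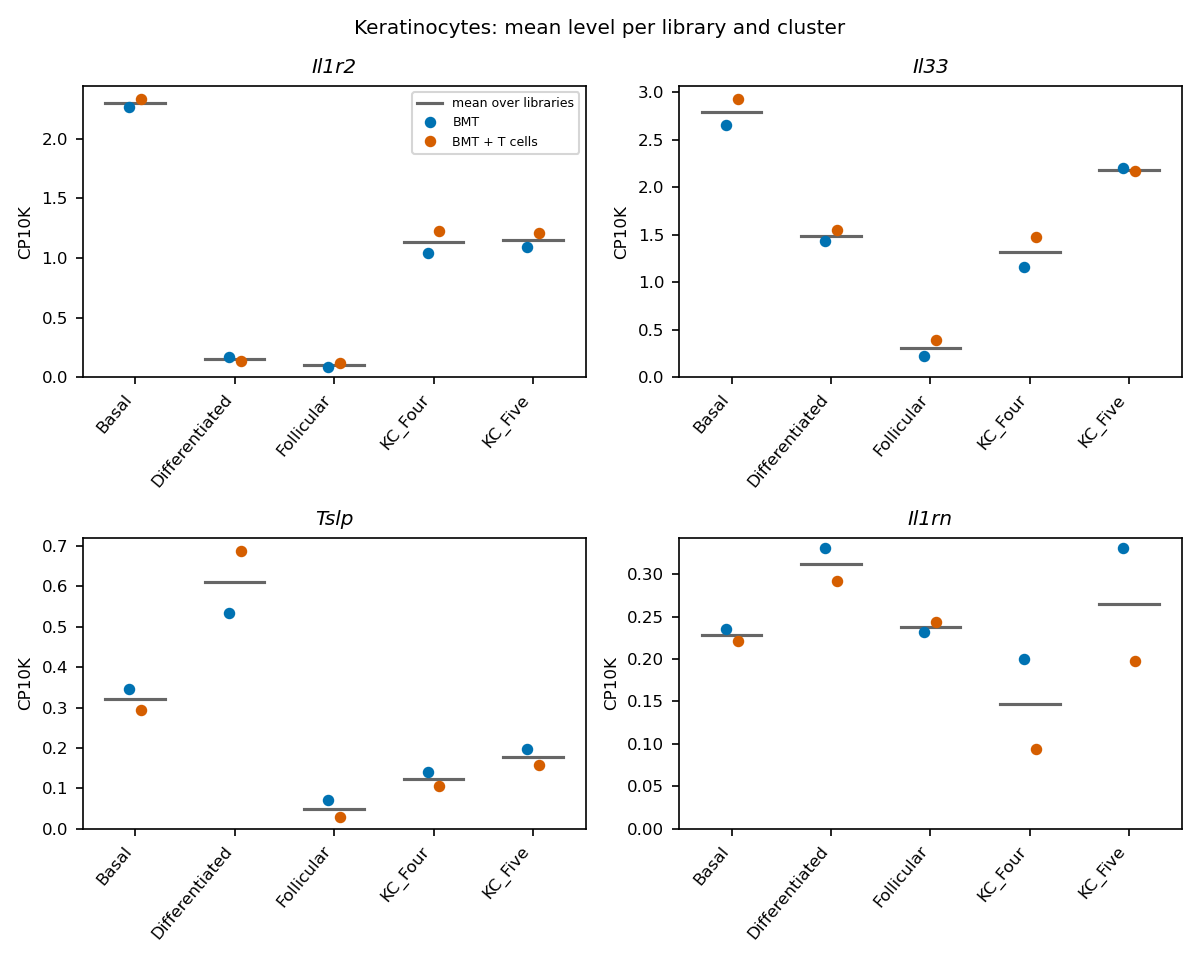
Level in CP10K of Il1r2, Il33, Tslp and Il1rn in 5 keratinocyte clusters; points are the BMT and BMT + T cells libraries and horizontal lines their mean. Il1r2 and Il33 are highest in basal cells and Tslp in differentiated cells.

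With the same limma test over 7650 genes, differentiated against basal cells called 1 of 4 tested genes, beside 1.06% of genes: Il1r2 differed by -3.25 ± 0.12 (adjusted p = 1.05e-13). Il33 (-0.86 ± 0.12, adjusted p = 1.92e-05) and Tslp (0.75 ± 0.16, adjusted p = 0.000947) differed under the fold threshold. Follicular against basal cells called Il1r2 (-3.57 ± 0.12) and Il33 (-2.85 ± 0.12), beside 1.57% of genes, with Tslp at -1.50 ± 0.16. Follicular against differentiated cells called Tslp (-2.25 ± 0.16, adjusted p = 5.71e-10), beside 2.52% of genes, with Il33 at -1.99 ± 0.12. The 2 libraries carry different labels and served as the replicates here, with 4 residual degrees of freedom. Since limma also draws on the spread of all other genes, the small adjusted p-values do not rest on these 2 libraries alone. Of 14 other pathway genes tested, 0 were called in any of the 3 contrasts by limma, and 3, 5 and 7 had an unadjusted p under 0.05 in the order given, beside 38.6%, 34.6% and 49.4% of all genes. Il1r1, the signalling IL-1 receptor, differed by -0.15 ± 0.13 between differentiated and basal cells (adjusted p = 0.434). At an adjusted p under 0.05 alone, Pycard, the inflammasome adaptor, differed by 1.48 and Nfkb1, an NF-kB subunit, by -0.36 between differentiated and basal cells, beside 30.3% of all genes by limma.

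Between the keratinocyte labels there was 1 library each and no test. Past a fold of 2 were 0 of the 4 genes with enough signal, beside 0.717% of 7534 genes. Il33 had 5643 UMIs in the BMT + T cells library and 5143 in the BMT library, a ratio of 1.22 per UMI sequenced (95% exact interval 1.18 to 1.27, counting error only). Il1r2 had a ratio of 1.16 (1.11 to 1.21) while Tslp had 0.854 (0.778 to 0.938) and Il1rn 0.842 (0.750 to 0.944). In follicular cells the ratio was 1.67 (1.21 to 2.31) for Il33 and 1.95 (1.14 to 3.40) for Il1r2, the latter from 40 and 23 UMIs. In KC_Four cells Il1rn had a ratio of 0.445 (0.259 to 0.735), from 21 and 68 UMIs. In basal cells the Tslp ratio was 0.725 (0.643 to 0.817), and 1 basal cell of the BMT library held 227 of its 644 Tslp UMIs, while the next highest keratinocyte held 31. Without that cell the ratio was 1.12 (0.978 to 1.28) in basal cells and 1.09 (0.991 to 1.21) in all keratinocytes, and the basal mean of the BMT library went from 0.347 to 0.284 CP10K.

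Il1b in keratinocytes rested on few cells. The BMT + T cells library had 122 UMIs and the BMT library 24, and 2 basal cells of the former held 63 and 50. These 2 cells also held S100a9 (183 and 221 UMIs), S100a8 (71 and 157), Cxcl2 (28 and 135) and Srgn (32 and 54), each with a median of 0 in basal cells, beside Krt14 at 327 and 583 UMIs. They further held Tyrobp (6 and 13 UMIs) and Fcer1g (5 and 14), each again with a basal median of 0. Lyz2, Cd74 and H2-Aa were at 0 UMIs in both cells. Without them the ratio of labels went from 5.67 (3.64 to 9.18) to 0.418 (0.171 to 0.932). Whether they were doublets was not tested.

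Host cells had 1 library and no test, and their values can only be set beside those of the donor table. Il18 stood at 1.90, 2.25 and 2.83 CP10K in host clusters 1, 2 and 3 and at 0.539 in cluster 4. Il1r2 had the same order, at 1.70, 2.02, 2.82 and 0.851 CP10K. Cluster 4 held the migrating markers Cd83, Nr4a3 and Ccr7 at a sum of 16.8 CP10K, against 0.933, 1.60 and 0.557 CP10K in clusters 1, 2 and 3. Its low Il18 went the same way as in donor migrating mLC, and its low Il1r2 went the opposite way. Il1b was low, with 39 UMIs in 18 of 781 cells, and cluster 2 owed 68.8% of its 16 UMIs to 1 cell. Il1rl1 was found in 4.87% of host cells, beside 0.471% of donor cells and none of the keratinocytes, at different depths and in separately made tables. Il33 (2.17 CP10K), Tslp (0.201) and Il1rn (0.295) were highest in cluster 5, whose 43 cells held Krt5 and Krt14 at a sum of 335 CP10K, against 1.05 to 23.1 CP10K in the other host clusters with at least 20 cells. Most Il33 and Tslp UMIs of this CD11b+MHCII+ sort, 329 of 348 and 28 of 32, stood in that cluster.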

How the data were processed

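Droplet libraries (5′ kit) of 7 samples were used. Per the labels, the authors used kallisto, bustools and Seurat with build GRCm38. The deposited values are natural log (ln) of 1 plus UMIs per 10000, and clusters are the authors' own. Undoing the log gave whole UMI counts for 100% of values (tolerance 0.001). Linear CP10K values were averaged over the cells of each library and cluster holding 20 or more cells. A gene entered the test when its mean reached 0.1 CP10K, and the test was limma 3.58.1 (R 4.3.3, statmod 1.5.0; trend, robust, library as block, all clusters in the fit) on log2(CP10K + 0.1), with Benjamini-Hochberg adjustment over all genes tested. Between labels the log2 fold threshold was 1, and the single BMT + T cells library took its spread from the BMT libraries. All cells were kept. The authors state that doublets had been removed, and none was looked for again. Pairs of libraries shared 0 to 7 barcodes. Intervals are exact at 95% and cover counting error only, and a count of 0 allows 3 counts.

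On simulated data with 200 genes changed 8-fold, drawn from all genes at 0.1 CP10K or more, limma called 138 (resident mLC minus Mono) and 127 (differentiated minus basal keratinocytes), with 0 false calls. Those called were 96 raised and 42 lowered genes in the first and 93 raised and 34 lowered in the second, while 197 and 189 of 200 passed the adjusted p in the right direction. Drawn from genes at 1 CP10K or more, 197 and 191 were called. In the simulation all libraries and clusters shared the same profile apart from the changed genes, with no library effect. The spread beyond counting was set alike for all genes, so the 0 false calls do not give the error rate in the real data. Both draws are given, since the choice of the higher floor was made after the result at the lower one was seen. A fall in a weakly expressed gene can therefore miss the fold threshold, since the pseudocount shrinks it. Il18 in donor cells and Tslp and Il1rn in keratinocytes were weakly expressed, although falls in Il18 and Tslp were called in some contrasts.

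The genes were named by a rule: the 8 members, the pathway lists, and the 3 genes most correlated with each tested member. Members and lists were chosen with earlier results of these data known. Tables and figures were made with pandas 2.3.3, SciPy 1.17.1 and matplotlib 3.10.9 on Python 3.11.15 (NumPy 2.4.6).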

Additional observations from a re-analysis of the deposited data

Results flagged for a closer look

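Tslp moved in opposite directions between the keratinocyte labels, with counting intervals that left out 1. The ratio of BMT + T cells to BMT was 1.33 (1.12 to 1.58) in differentiated cells, 0.725 (0.643 to 0.817) in basal cells and 0.498 (0.279 to 0.852) in KC_Four cells. The difference was not tested, with 1 library per label. The basal ratio was 1.12 without the cell that held 227 Tslp UMIs, an alternative chosen after seeing the data. KC_Four rests on 19 and 55 UMIs.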

How the results depend on the processing

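Of 360 limma differences of single genes under an alternative, 293 kept their direction and their side of the threshold, 45 lost and 22 gained a call, and 0 changed direction. Only differences with an adjusted p under 0.05 by limma in the main setting were followed, which leaves out all those of the donor label. Alternatives that changed the fold threshold alone reused the main fit, so their direction was fixed. Counts of the 8 genes called moved most with the scale. With a pseudocount of 1, 1 gene (Il1b) was called in resident mLC against Mono, against Mrc1+ macrophages and in migrating against resident mLC, and 0 in MC against resident mLC, in Hmox1+ monocytes against Mono and in the 3 keratinocyte contrasts. With means of the natural-log values, 0 were called in each of these 8 contrasts, and 21 genes in all in resident mLC against Mono, beside 295. Hmox1+ monocytes against Mono called 0 with a pseudocount of 0.01, at least 50 cells, limma-voom, only those 2 clusters, or at least 5 cells, and called 2 at a fold threshold of 1 and 3 with none. ISG monocytes called 1 at a fold threshold of 1 or with none. Follicular against differentiated cells called 2 with a pseudocount of 0.01, with limma-voom or at a fold threshold of 1, 3 with no fold threshold, and 0 with a filter at 0.5 CP10K. Differentiated against basal cells called 3 with no fold threshold. S100a+ monocytes called 4 with at least 5 cells, where 627 genes in all were called. The donor label called 1 (Il1r2) against BMT replicate 3 alone, with no test, and 149 genes in all passed that fold. The keratinocyte label had 2 past the fold (Il1a and Il1b) with no filter, beside 5696 of 21628 genes. The cause of these changes was not tested. Leaving out 1 donor library at a time gave 2 to 4 called genes in migrating against resident mLC, 0 to 1 in Hmox1+ monocytes, and 0 to 2 for the donor label. Over all genes, resident mLC against Mono called 41 with a pseudocount of 1, 630 with 0.01, 568 with limma-voom and 188 with a filter at 0.5. Without its top cell the Tslp ratio of labels was 1.12 in basal cells and 1.09 in all keratinocytes, and without 2 cells the Il1b ratio was 0.418, each in the opposite direction. These, and the limit of at least 5 cells, were chosen after seeing the data. Cluster contrasts were fitted within libraries, with the library as a term. Between labels, no paired analysis was possible because the groups compared share fewer than 2 replicate numbers. Keratinocyte contrasts were not refitted without a library, since 1 library would leave no replicate, and the S100a+ cluster had no value without BMT replicate 2. Il1a, Il1rl1, Il33 and Tslp did not reach the mean of 0.1 CP10K in donor cells and were not tested there.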
